A study of Homo sapiens with 11 samples.

Results

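Human mitochondrial ribosomal protein genes carry the symbols MRPL (large subunit) and MRPS (small subunit). They were taken as every row of the deposited table whose symbol is MRPL or MRPS, then a number and at most 1 letter. The rule found 78 genes among 23434 rows, 49 MRPL and 29 MRPS. All 78 had an adjusted p, and all exceeded 2 CPM (CPM scaled to the table's mean total, where 2 CPM are 38.6 normalized counts) on average, so none was lost to a filter on low values. Choosing by symbol used no measured value.

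The RNA came from liver tumours that formed after 500000 PANC1 LM3 cells had been injected into the spleen on day 1, with harvest on day 21. PANC1 is an established line from a human pancreatic carcinoma, and LM3 is its liver-metastatic derivative of the 3rd generation. The groups were shNPTX1_3 (3 libraries) and shNPTX1_4 (4 libraries), which carried 2 different short hairpin RNAs against NPTX1 and are labelled as NPTX1 knock down, and shCTRL (4 libraries), which carried a control hairpin and is labelled WT. All groups share the cell line, the route of injection and the day of harvest, no source used here gives the strain or age of the host animals, and the replicates are called biological with no word on which animals they came from. DESeq2 p-values thus measure spread between libraries, part of which may be technical. Single-library values were not analysed here, and the deposited table holds, for each group, the authors' mean normalized count, and compares the 7 knockdown libraries as 1 group with the 4 of shCTRL.

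Mitochondrial ribosomes translate the few proteins encoded by mitochondrial DNA, all of them core parts of the respiratory chain and ATP synthase. The ribosomal RNAs come from the mitochondrial genome, while every protein of both subunits is encoded in the nucleus, made in the cytosol and imported. Some of these proteins have relatives in bacterial ribosomes, and others occur only in mitochondria. In any bulk sample, fewer cells of a type and less RNA per cell cannot be told apart.

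Single-read steps among low group means gave 10800000 to 24000000 reads on genes per shNPTX1_3 library, 16600000 to 26100000 per shNPTX1_4 library and 13000000 to 41200000 per shCTRL library. The shCTRL libraries were uneven, at 13000000, 14800000, 37000000 and 41200000 reads. NPTX1 itself, the hairpins' target, had authors' means of 46.5 normalized counts in shNPTX1_3, 38.4 in shNPTX1_4 and 103 in shCTRL per the authors' deposited table. The carcinoma markers KRT8, KRT18 and VIM were abundant, and their list of 8 summed to 126407, 98495 and 77943 normalized counts in shNPTX1_3, shNPTX1_4 and shCTRL, with 4 of 8 higher. The 4 were the keratin genes KRT8, KRT18, KRT7 and KRT19, of which KRT19 rose 4.92-fold. VIM was not called, and without it the list summed to 57736, 30190 and 17326. Of 12 hepatocyte markers, all had a mean over all libraries under 2 CPM, APOA1 and SERPINA1 reached 49.3 and 48.2 normalized counts in shNPTX1_3, 2 (APOA1 and TF) were higher, the list summed to 203, 109 and 101 normalized counts, and ALB lay between 0.284 and 0.784, with no marker at 0 in every library. Of 8 fibroblast and stellate cell markers, 2 were higher and the list summed to 6525, 3466 and 1742 normalized counts in the same order. COL3A1 made up that difference, with 5517, 2247 and 731, and the other 7 summed to 1008, 1219 and 1011, among them COL1A2 with 17.8, 17.5 and 74.3 (not called). Leukocyte markers summed to 1013, 815 and 918, endothelial markers to 421, 367 and 368, and erythroid markers to 8.72, 12.9 and 9.10 normalized counts, with no member of these lists called. The rows carry human gene symbols, and the handling of mouse reads is not stated in the sources used here. These sums therefore do not measure the amount of host cells. The part of these markers in the results below was not tested.

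Short stretches of 4 members' promoters are shown because these genes were among the largest increases and hold letters that recur in front of mitochondrial ribosomal protein genes. Each line runs 5′ to 3′ from 120 bases before to 30 bases after the gene's start, from RefSeq (GRCh38.p14), and capitals mark CCGGAAG or its reverse complement (the core bound by ETS factors such as GABP) in MRPL33, MRPS33 and MRPS26, and AAGATGGC (a core of YY1 sites) in MRPS24.
MRPL33, chr2:27771599-27771748, plus strand: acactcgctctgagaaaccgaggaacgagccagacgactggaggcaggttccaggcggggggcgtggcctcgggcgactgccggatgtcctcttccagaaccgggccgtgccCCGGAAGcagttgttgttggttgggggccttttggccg
MRPS24, chr7:43869488-43869637, minus strand: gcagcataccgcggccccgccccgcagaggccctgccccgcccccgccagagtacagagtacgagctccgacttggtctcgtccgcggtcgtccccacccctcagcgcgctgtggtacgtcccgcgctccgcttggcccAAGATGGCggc
MRPS33, chr7:141014923-141015072, minus strand: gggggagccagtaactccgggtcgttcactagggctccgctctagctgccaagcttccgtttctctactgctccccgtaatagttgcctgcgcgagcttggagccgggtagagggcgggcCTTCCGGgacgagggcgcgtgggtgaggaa
MRPS26, chr20:3045932-3046081, plus strand: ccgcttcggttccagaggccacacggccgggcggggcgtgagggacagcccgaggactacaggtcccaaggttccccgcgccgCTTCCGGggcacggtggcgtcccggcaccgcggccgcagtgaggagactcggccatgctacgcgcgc
RefSeq gave a promoter of 250 bases before and 50 after the start for 69 of the 78 members. CCGGAAG, on either strand, was present in 29 of these 69 (42.0%), against 18.7% of 10405 other genes at 2 CPM or more and 10.7% of all 27305 genes with a promoter. AAGATGGC was present in 20 of 69, against 5.07% of the other genes and 3.03% of all. The letters of both motifs were found in 8 members, overlapping in 0 of them, and at least 1 of the motifs in 41 members (59.4%, against 22.5% of the other genes). Large and small subunit genes held them about equally often, with CCGGAAG in 40.5% of MRPL and 44.4% of MRPS promoters and AAGATGGC in 28.6% and 29.6%. Among members with a promoter, AAGATGGC was in 7 of 35 called and 13 of 34 uncalled genes, and CCGGAAG in 16 of 35 and 13 of 34. Their median log2 fold change was 0.19 with AAGATGGC and 0.32 without it, and 0.27 with CCGGAAG and 0.26 without it. The core of NRF1 sites (nuclear respiratory factor 1) was in 8 of 69 members (11.6%) and 11.5% of the other genes, TATAAA in 2 (2.90%) and 5.67%, and the cAMP response element TGACGTCA in 0 and 3.12%. These matches are descriptions of letters in a window, chosen after the values were known, and an absent match says nothing about binding.

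The comparison of knockdown with control tumours asked whether the genes of the mitochondrial ribosome differed with NPTX1 knockdown. Of the 78 members, 39 rose and 0 fell at a DESeq2 adjusted p under 0.05 per the authors' deposited table, where 15.8% of all 18426 named genes tested rose and 11.5% fell. Among genes at 2 CPM or more, where all members lie, 19.4% rose and the median log2 fold change was 0.02. The changes were small: the median log2 fold change of the members was 0.27, with quartiles of 0.16 and 0.39, against a median of -0.01 over all tested genes, and the range ran from -0.22 to 0.65. In all, 70 members had a positive estimate and 8 a negative one. Standard errors ranged from 0.07 to 0.22 on the log2 scale, with a median of 0.11. Counts and medians over members are descriptions, since a single library can shift a whole family and members are not replicates.

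How many members rose depended on the scaling. Scaling the groups to equal totals lowers each log2 fold change by 0.0661, and with it 28 members rose and 1 fell, while 11.6% of all genes rose. The 11 members that lost their calls under it were MRPL12, MRPL21, MRPL23, MRPL44, MRPL48, MRPL51, MRPL52, MRPS15, MRPS16, MRPS21 and MRPS35. As deposited, the sum over all 78 members was 57257 normalized counts in shNPTX1_3, 57310 in shNPTX1_4 and 48161 in shCTRL, which is 1.19 times control with each hairpin. The totals of the whole table were 1.07 and 1.03 times control over the tested genes.

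Large and small subunit genes had nearly equal medians. Of 49 MRPL genes, 22 rose and 0 fell per the authors' deposited table (44.9% higher), and of 29 MRPS genes, 17 rose and 0 fell (58.6% higher). The median log2 fold change was 0.27 in both, and large minus small was -0.000868. The large subunit summed to 33423 normalized counts in shNPTX1_3, 33847 in shNPTX1_4 and 27913 in shCTRL, and the small subunit to 23834, 23464 and 20248. No test was made between the subunits, since their genes are not replicates. By symbol, MRPS30 and MRPS18A count as small, although structures of the ribosome place both in the large subunit, and MRPS36 is now assigned to the 2-oxoglutarate dehydrogenase complex. Grouped by place, 23 of 51 large and 15 of 26 small subunit genes rose, with medians of 0.27 in each. Members with a bacterial relative and those without one also did not separate, with 24 of 46 and 15 of 32 called higher and medians of 0.29 and 0.27.

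**Figure D1:**
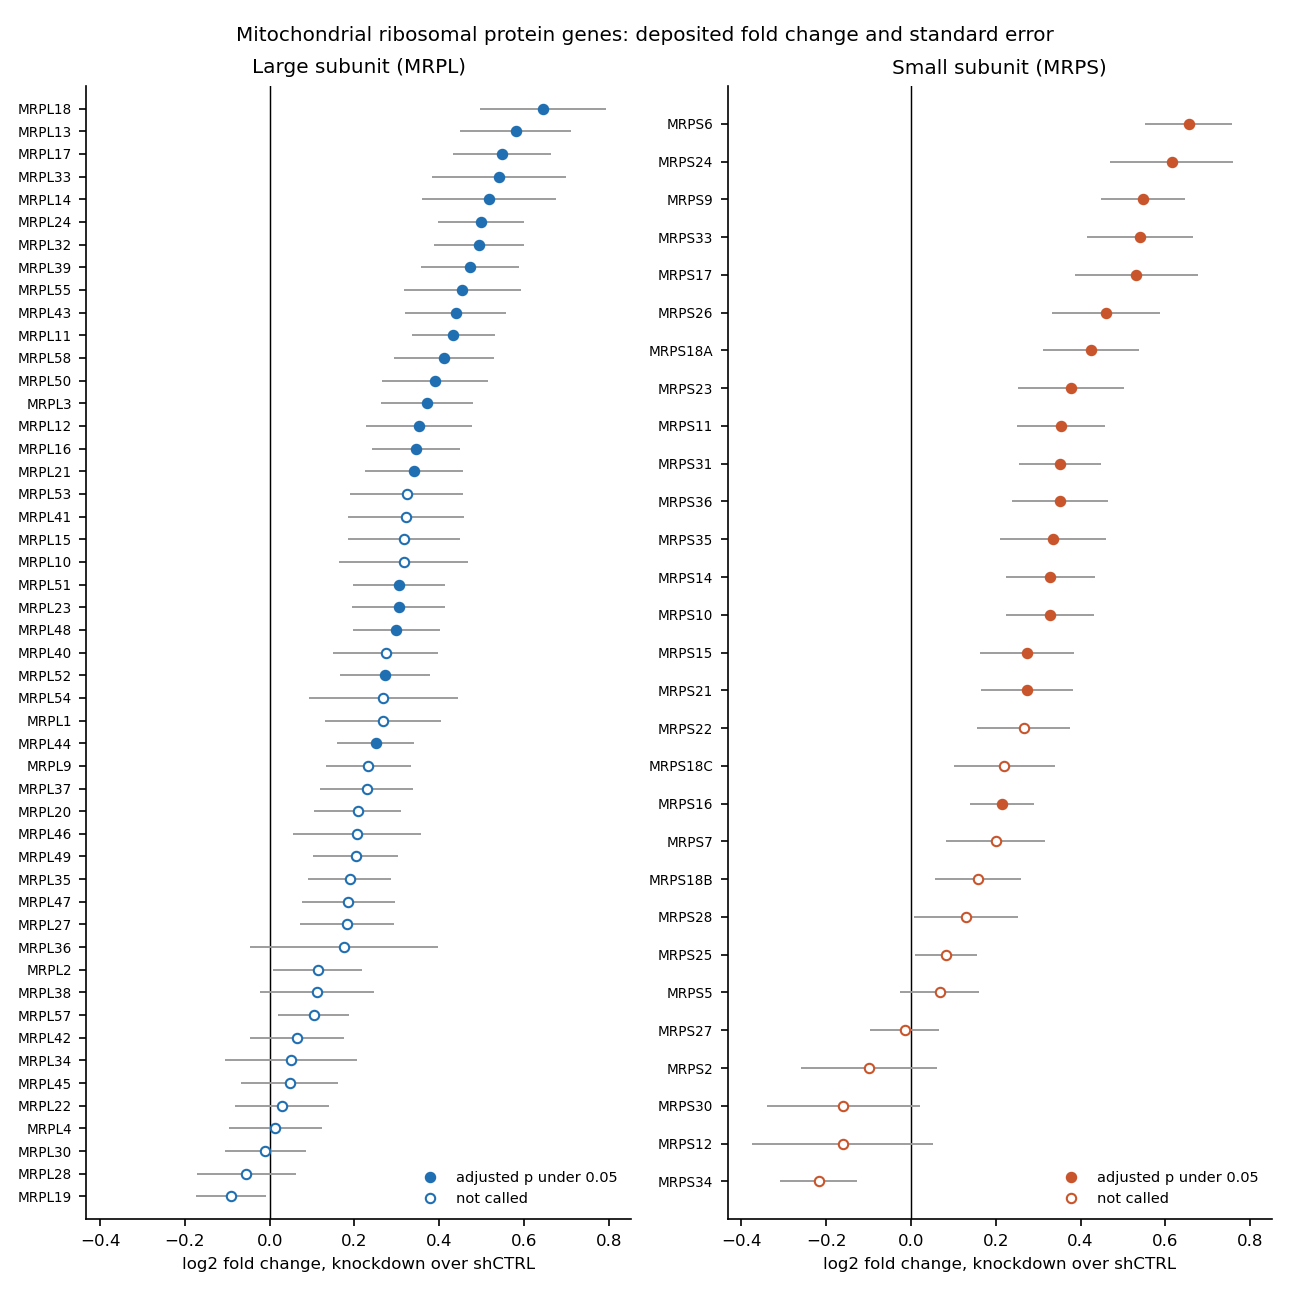
Deposited log2 fold change, knockdown over shCTRL, for each of the 49 MRPL genes (left) and 29 MRPS genes (right), with bars of 1 standard error, filled points for an adjusted p under 0.05 and open points for genes not called. Estimates run from -0.22 (MRPS34) to 0.65 (MRPS6), and all 39 filled points lie right of 0.

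In the large subunit, the 6 largest increases were in MRPL18, MRPL13, MRPL17, MRPL33, MRPL14 and MRPL24. MRPL18, a relative of the bacterial protein that holds 5S ribosomal RNA, had authors' means of 1459 normalized counts in shNPTX1_3, 1248 in shNPTX1_4 and 856 in shCTRL per the authors' deposited table. Both hairpin groups lay well above control, and the gene rose 1.56-fold (log2 fold change 0.64, standard error 0.15, DESeq2 adjusted p = 0.000184 per the authors' deposited table). MRPL13, another protein of the large subunit with a bacterial relative, had 611 normalized counts in shNPTX1_3, 537 in shNPTX1_4 and 381 in shCTRL per the authors' deposited table, and rose 1.49-fold (DESeq2 adjusted p = 0.000154). MRPL17 and MRPL24, relatives of bacterial proteins around the exit of the nascent chain, were nearly equal between the hairpins. MRPL17 had 1577, 1523 and 1058 normalized counts and MRPL24 had 1047, 1039 and 739 per the authors' deposited table, in shNPTX1_3, shNPTX1_4 and shCTRL, with increases of 1.46-fold and 1.41-fold (DESeq2 adjusted p = 3.65e-05 and 2.01e-05). MRPL33, one of the smallest proteins of the subunit, had 606, 493 and 373 normalized counts in the same order per the authors' deposited table, and rose by 0.54 on the log2 scale (DESeq2 adjusted p = 0.00442). It shares exon bases with BABAM2, and MRPL13 with MTBP on the other strand. MRPL14, which lies at the face that meets the small subunit, had 391, 372 and 265 normalized counts and rose by 0.52 (DESeq2 adjusted p = 0.00674, per the authors' deposited table). The other MRPL genes that rose were MRPL32, MRPL39, MRPL55, MRPL43, MRPL11, MRPL58, MRPL50, MRPL3, MRPL12, MRPL16, MRPL21, MRPL51, MRPL23, MRPL48, MRPL52 and MRPL44, with log2 fold changes from 0.49 down to 0.25 per the authors' deposited table.

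In the small subunit, MRPS6 had the largest increase of all 78 members. This relative of bacterial S6 had authors' means of 766 normalized counts in shNPTX1_3, 649 in shNPTX1_4 and 442 in shCTRL, and rose 1.57-fold (log2 fold change 0.65, standard error 0.10, DESeq2 adjusted p = 7.61e-09 per the authors' deposited table). Its exons share bases with SLC5A3 on the same strand, so part of its reads is uncertain. MRPS24, the mitochondrial counterpart of bacterial S3 near the entry of the messenger RNA, had 340, 343 and 223 normalized counts in shNPTX1_3, shNPTX1_4 and shCTRL per the authors' deposited table, and rose 1.53-fold (DESeq2 adjusted p = 0.000285); it shares exons with the readthrough URGCP-MRPS24. MRPS9, a protein of the head of the subunit, had 850, 809 and 567 normalized counts in the same order and rose 1.46-fold (DESeq2 adjusted p = 8.85e-07, per the authors' deposited table). The mitochondria-specific proteins MRPS33 and MRPS26 followed the same pattern. MRPS33 had 344, 371 and 247 and MRPS26 had 338, 311 and 234 normalized counts in shNPTX1_3, shNPTX1_4 and shCTRL, with log2 fold changes of 0.54 and 0.46 (DESeq2 adjusted p = 0.000199 and 0.00265, per the authors' deposited table). MRPS17, a relative of bacterial S17, had 646, 601 and 431 normalized counts per the authors' deposited table, in the same order, and rose by 0.53 (DESeq2 adjusted p = 0.00217). It shares exon bases with NIPSNAP2. The other MRPS genes that rose were MRPS18A, MRPS23, MRPS11, MRPS31, MRPS36, MRPS35, MRPS14, MRPS10, MRPS15, MRPS21 and MRPS16, with log2 fold changes from 0.42 down to 0.21 per the authors' deposited table.

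**Figure D2:**
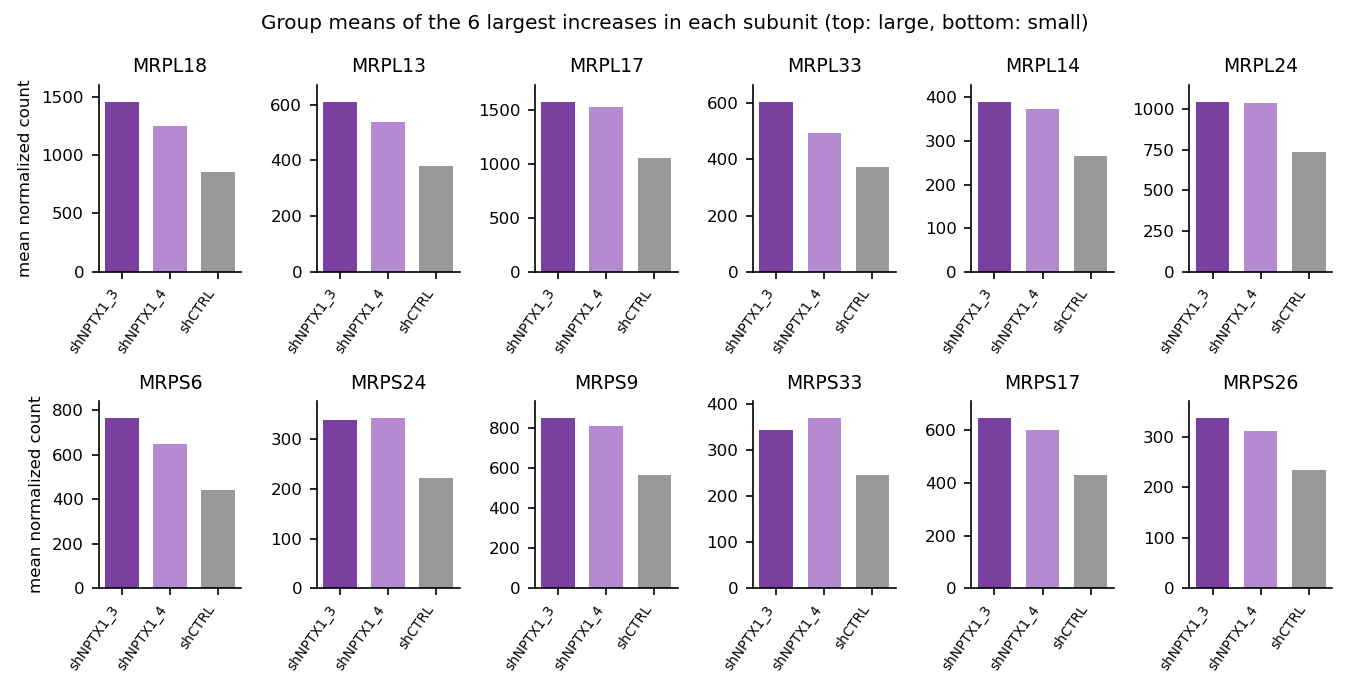
Mean normalized counts (linear axis from 0, its own scale for each gene) of the 6 largest increases in the large subunit (top) and the small subunit (bottom), as the authors' means of shNPTX1_3, shNPTX1_4 and shCTRL, without error bars because single libraries are not in the table. Both hairpin groups stand above shCTRL in all 12 genes.

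Members with known roles in the ribosome's working parts did not all pass the test. At the stalk, which recruits translation factors, MRPL12, the counterpart of bacterial L7/L12, had 236, 249 and 190 normalized counts in shNPTX1_3, shNPTX1_4 and shCTRL and rose by 0.35 (DESeq2 adjusted p = 0.0228, per the authors' deposited table). MRPL11 at the base of the stalk rose by 0.43 (DESeq2 adjusted p = 0.000127, per the authors' deposited table), with 778, 820 and 596 normalized counts in the same order. MRPL10, which anchors the stalk, had a log2 fold change of 0.32 and a DESeq2 adjusted p of 0.108 per the authors' deposited table. Near the peptidyl transferase centre, MRPL3 rose by 0.37 (DESeq2 adjusted p = 0.00446, per the authors' deposited table), with 2529, 2731 and 2048 normalized counts in shNPTX1_3, shNPTX1_4 and shCTRL. MRPL2, a core protein of that centre, had 216, 236 and 209 normalized counts and a log2 fold change of 0.11 (DESeq2 adjusted p = 0.447, per the authors' deposited table). MRPL44, which has a ribonuclease III-like fold, rose by 0.25 (DESeq2 adjusted p = 0.0258, per the authors' deposited table). MRPL45, which sits at the tunnel exit and faces the inner membrane, had 345, 364 and 348 normalized counts and a log2 fold change of 0.05 per the authors' deposited table (95% interval -0.18 to 0.27). MRPL58, a peptidyl-tRNA hydrolase built into the large subunit, rose by 0.41 (DESeq2 adjusted p = 0.00356, per the authors' deposited table).

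Among the small subunit's named parts, MRPS16 rose by 0.21 with a standard error of 0.08 (DESeq2 adjusted p = 0.0232, per the authors' deposited table), with 1924, 2008 and 1701 normalized counts in shNPTX1_3, shNPTX1_4 and shCTRL. MRPS7, a head protein that contacts ribosomal RNA, had a log2 fold change of 0.20 (DESeq2 adjusted p = 0.193, per the authors' deposited table). MRPS27, a pentatricopeptide repeat protein, had 1590, 1701 and 1673 normalized counts and a log2 fold change of -0.01 per the authors' deposited table, with a 95% interval from -0.17 to 0.15. The S18 relatives occur in 3 copies, and of these MRPS18A rose by 0.42 while MRPS18B and MRPS18C had log2 fold changes of 0.16 and 0.22 (DESeq2 adjusted p = 0.00168, 0.248 and 0.159, per the authors' deposited table). MRPS30 had 822, 697 and 840 normalized counts in shNPTX1_3, shNPTX1_4 and shCTRL, and its log2 fold change was -0.16 (standard error 0.18) per the authors' deposited table.

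The members nearest the threshold without passing it were MRPS22 and MRPS34 in the small subunit and MRPL53 and MRPL15 in the large one, with DESeq2 adjusted p-values of 0.0536, 0.0581, 0.0562 and 0.0569 per the authors' deposited table. MRPS34 was the sole one of these with a negative estimate: its authors' means were 634 normalized counts in shNPTX1_3, 594 in shNPTX1_4 and 711 in shCTRL, and its log2 fold change was -0.22 (standard error 0.09) per the authors' deposited table. MRPS34 passed the threshold as lower in 4 of the 6 alternative settings of the test. The other negative estimates, all with a DESeq2 adjusted p of 0.431 or more, were those of MRPS12, MRPS30, MRPS2, MRPL19, MRPL28, MRPS27 and MRPL30, between -0.16 and -0.01 per the authors' deposited table. In all, the 27 uncalled MRPL genes had log2 fold changes from -0.09 to 0.32, and the 12 uncalled MRPS genes from -0.22 to 0.27. MRPS22, a protein with no listed bacterial relative, had 957 normalized counts in shNPTX1_3, 927 in shNPTX1_4 and 784 in shCTRL.

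Per kilobase of transcript (normalized counts over the median length of the gene's basic coding transcripts), the highest members were MRPL51, MRPL49 and MRPL42, at 2237, 2165 and 1584 normalized counts per kilobase over all libraries. The lowest were MRPS2, MRPL50 and MRPL54, at 76.3, 114 and 129. Called genes stood at both ends: MRPL51 and MRPL50 rose by 0.30 and 0.39 (DESeq2 adjusted p = 0.0233 and 0.0107, per the authors' deposited table), while MRPL49, MRPL42, MRPS2 and MRPL54 were not called, with DESeq2 adjusted p-values of 0.121, 0.708, 0.688 and 0.255.

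Set against the same control means, the hairpins gave like values for most members. Both hairpin means lay above control in 61 of 78 members, against 39.8% of the 14131 genes at 2 CPM or more, below control in 4 (36.4% of these genes), and on different sides in 13 (23.8%). The median log2 ratio (pseudocount 1) was 0.27 with shNPTX1_3 and 0.29 with shNPTX1_4. In the large subunit it was 0.27 and 0.28, and in the small subunit 0.27 and 0.29. With shNPTX1_3 alone 66 members lay above control (51.4% of the same background), and with shNPTX1_4 alone 69 (52.0%). The hairpin means share the control libraries, so these values are not independent, and no test of a single hairpin could be made from group means.

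A few members stood apart between the hairpins. MRPL36, the small relative of bacterial L36, had authors' means of 368 normalized counts in shNPTX1_3, 207 in shNPTX1_4 and 244 in shCTRL per the authors' deposited table, so that control lay between the hairpins. MRPS12, a protein of the decoding centre, had 593, 339 and 499 normalized counts in the same order, again with control between them. The log2 ratio of shNPTX1_4 to shNPTX1_3 was -0.83 for MRPL36 and -0.80 for MRPS12, and these genes carried the widest standard errors of the family, 0.22 and 0.21, per the authors' deposited table. MRPL10 and MRPL46 differed the other way, with 392 and 298 normalized counts in shNPTX1_4, 269 and 233 in shNPTX1_3, and 274 and 236 in shCTRL. Their log2 ratios of shNPTX1_4 to shNPTX1_3 were 0.54 and 0.36, while the median absolute ratio between the hairpins was 0.08 over the members and 0.18 over all genes at 2 CPM or more. None of the 4 was called in the combined comparison, and the differences between the hairpins were not tested.

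**Figure D3:**
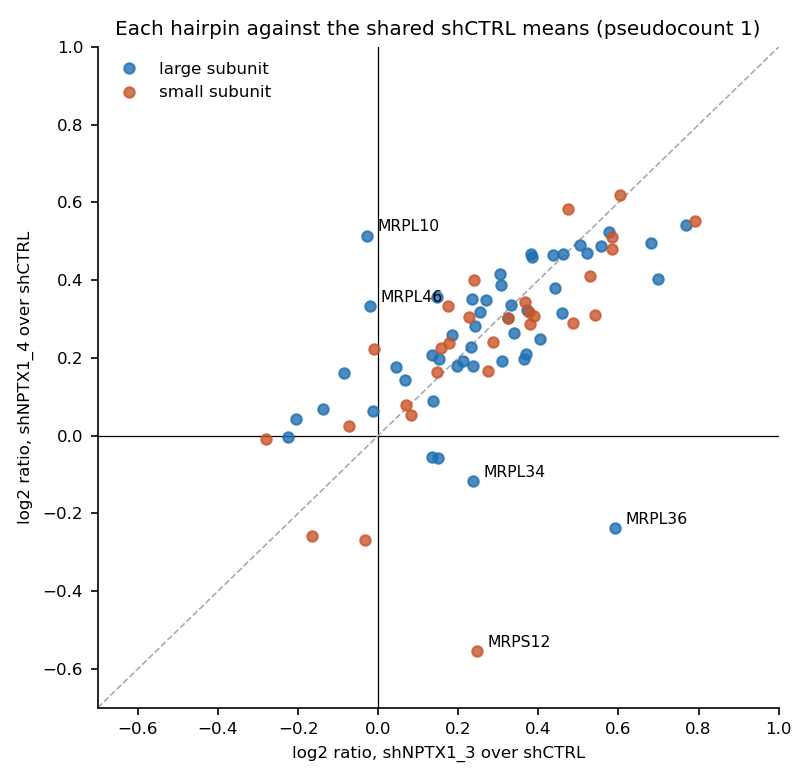
Log2 ratio to the shCTRL mean with shNPTX1_3 (horizontal) and with shNPTX1_4 (vertical), pseudocount 1, 1 point per member, blue for the large and orange for the small subunit, with a dashed line of equal values. Most points sit in the upper right part near the line, and MRPL36, MRPS12, MRPL10, MRPL46 and MRPL34 are named because they lie farthest from it; both axes share the control means.

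Position in the genome was looked at in GENCODE 29 (GRCh38), which is not the build the authors used, so that only names are given. The members lie on 21 chromosomes, with 0 on chromosome X. A protein-coding neighbour on the other strand starts within 1000 bases of the start of 29 of the 78 members (37.2%), against 15.2% of 15658 tested protein-coding genes. Of these neighbours, 27 were not members themselves, and 6 rose and 5 fell per the authors' deposited table (15.8% and 11.5% of all genes), with a median log2 fold change of 0.09. Where a neighbour that rose stood beside a member that rose, the pairs were MRPL32 with the proteasome subunit gene PSMA2 (0.49 and 0.54), MRPL18 with the chaperonin gene TCP1 (0.64 and 0.33), and MRPL50 with ZNF189 (0.39 and 0.35), as log2 fold changes per the authors' deposited table. MRPL32 and PSMA2 share exon bases on opposite strands. MRPL51 rose while its neighbour NCAPD2, a condensin subunit gene, fell by 0.20 (DESeq2 adjusted p = 0.0231, per the authors' deposited table), and these genes also share exon bases on opposite strands. MRPS12 is paired with SARS2, the mitochondrial seryl-tRNA synthetase gene, which fell by 0.36 per the authors' deposited table and shares exon bases with it. The other neighbours that fell were EME2 beside MRPS34, PPP1R10 beside MRPS18B and PRR23A beside MRPS22, and the others that rose were APBA3 beside MRPL54, EME1 beside MRPL27 and NDUFS6 beside MRPL36, where no member was called. MRPS11 and MRPL46 are neighbours and both members, with log2 fold changes of 0.35 and 0.21 per the authors' deposited table, of which MRPS11 was called. Exon bases were shared with another gene in 41 members, on the same strand in 16 and on the other strand in 29. Because no source used here gives the strand setting of the counting, reads of those stretches are uncertain. The 37 members that share none had 22 called higher and a median log2 fold change of 0.32, and the 41 that do had 17 and 0.22. Of 3 pseudogenes of the family in the table, MRPL45P2, MRPS31P5 and MRPL42P5, 0 were called, with log2 fold changes of -0.27, -0.09 and -0.75 per the authors' deposited table.

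Transcript length moved with the change across the whole table. The members have short transcripts, with a median of 1137 bases against 2494 over genes at 2 CPM or more. Among other genes at that level, the median log2 fold change was 0.13 under 1000 bases, 0.10 from 1000 to 2000 bases and -0.01 above. The members had medians of 0.30 (15 of 28 called higher), 0.27 (19 of 43) and 0.33 (5 of 7, a thinly filled class) in the same classes, against 26.5%, 24.0% and 16.6% of the other genes called higher. With a smooth trend over level, length and GC content removed, 22 members rose and 2 fell, and the medians were 0.13 for both subunits. In these values the median of all genes at 2 CPM or more, 0.0228, was added back after the trend was removed. Of the 13653 genes in that fit, 15.3% rose. The 18 members that lost their calls there were MRPL33, MRPL43, MRPL3, MRPL16, MRPL21, MRPL51, MRPL23, MRPL48, MRPL52, MRPL44, MRPS31, MRPS36, MRPS35, MRPS14, MRPS10, MRPS15, MRPS21 and MRPS16, and MRPS34 and MRPL19 became the 2 lower ones, at -0.36 and -0.28.

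**Figure D4:**
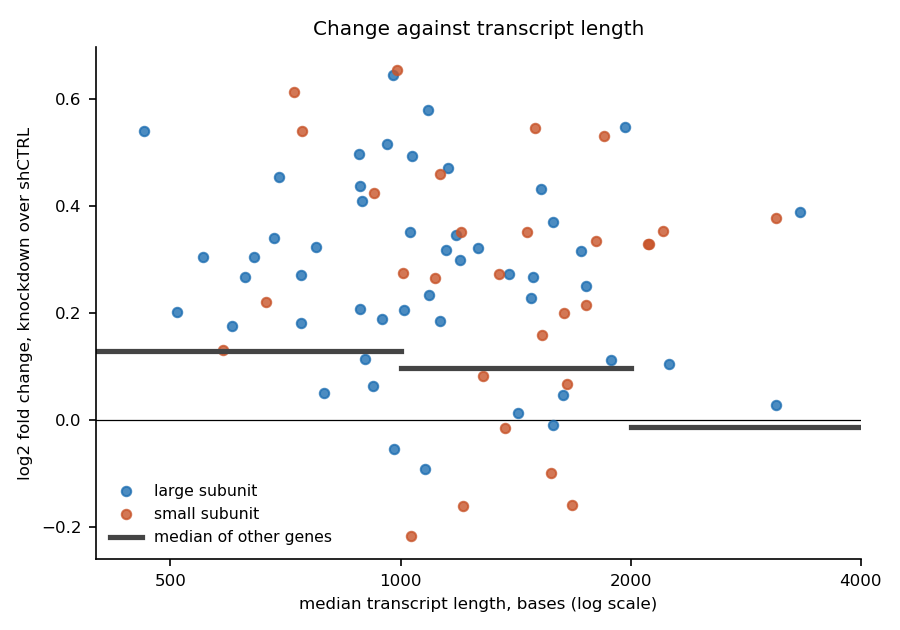
Deposited log2 fold change, knockdown over shCTRL, against median transcript length in bases (log axis) for the MRPL (blue) and MRPS (orange) genes. Dark lines give the median of the other genes at 2 CPM or more in 3 length classes (0.13, 0.10 and -0.01), with most members above them.

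Other genes of mitochondrial gene expression were counted from lists chosen for their role. Of 21 genes of mitochondrial transcription and RNA processing, 11 rose and 0 fell per the authors' deposited table, with a median log2 fold change of 0.23. The share higher was 52.4%, against 15.8% of all tested genes and 19.4% of those at 2 CPM or more. The largest were HSD17B10, a subunit of mitochondrial ribonuclease P, with 758, 755 and 416 normalized counts in shNPTX1_3, shNPTX1_4 and shCTRL (1.82-fold), the single-stranded DNA-binding protein gene SSBP1 with 2695, 2714 and 1771 (1.53-fold), and TBRG4, a FASTK family RNA-binding protein gene, which rose by 0.48, all per the authors' deposited table. The transcription factors TFAM and TFB2M rose by 0.30 each (DESeq2 adjusted p = 0.0124 and 0.00983, per the authors' deposited table). Estimates were positive in 18 of the 21 genes and negative in 3, POLG at -0.03, POLRMT at -0.03 and POLG2 at -0.39. None of these 3 was called (DESeq2 adjusted p = 0.854, 0.860 and 0.0733, per the authors' deposited table). With total-count scaling 4 of the 21 rose and 1 fell, while 11.6% of all genes rose.

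Assembly and ribosomal RNA factors had 6 of 29 members higher (20.7%, close to the 19.4% of genes at 2 CPM or more), 0 lower and a median of 0.10 per the authors' deposited table. MALSU1, which binds MRPL14 on the unjoined large subunit, rose by 0.58, the assembly GTPase gene GTPBP10 by 0.55 and the RNA methyltransferase gene TRMT2B by 0.43 per the authors' deposited table. Of 18 translation factors, 3 rose and 0 fell, with a median of 0.16. The 16.7% that rose was close to the 15.8% of all genes and below the 19.4% of genes at 2 CPM or more. The initiation factor gene MTIF2 rose by 0.41 and TACO1, an activator of COX1 translation, by 0.39. SLIRP, a partner of LRPPRC on mitochondrial messenger RNAs, rose by 0.33, all per the authors' deposited table. Of 22 aminoacyl-tRNA synthetase and amidotransferase genes, 6 rose and 1 fell, with a median of 0.14. The 27.3% that rose stood against 15.8% of all genes and 19.4% of genes at 2 CPM or more. Among these 22, NARS2 (0.38) and KARS (0.36) rose and SARS2 (-0.36) fell, per the authors' deposited table. Total-count scaling left 3 assembly factors and 1 synthetase higher, and a threshold of 0.01 left 1 synthetase. Mitochondrial ribosomal proteins that carry other symbols (DAP3, PTCD3, CHCHD1, AURKAIP1 and GADD45GIP1), listed with the insertase gene OXA1L, had 1 of 6 called, CHCHD1, which rose by 0.43 (DESeq2 adjusted p = 0.0229, per the authors' deposited table), and a median of 0.06. The share called, 16.7%, was close to that of all genes, and the call of CHCHD1 was lost with total-count scaling, at an adjusted p under 0.01 and with the trend removed.

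Of the comparable large families, the genes of the cytosolic ribosome had 25 of 81 members higher (30.9%, against 15.8% of all tested genes) and 0 lower, with a median of 0.19, and 32 of 82 nuclear genes of the respiratory chain and ATP synthase rose (39.0%) and 1 fell, with a median of 0.24, per the authors' deposited table. The mitochondrial ribosome's 39 of 78 and 0.27 stood beside these with no test of the difference. With the trend over level, length and GC content removed, 6 cytosolic and 11 respiratory chain genes were higher, against 22 members, and with total-count scaling 13 and 23, against 28. Removing the trend needs a transcript length, which 64 of the 82 respiratory chain genes and all 78 members had. Genes without a length could not be called in that setting, so the sets differ there. Mitochondrially encoded ribosomal RNA is not among the rows used here. The table does hold 9 nuclear copies of the mitochondrial 16S ribosomal RNA gene (MTRNR2L genes), nearly identical to the mitochondrial original, so that the source of their reads is uncertain. Of these, 3 fell (11.5% of all tested genes did) and 0 rose per the authors' deposited table, a list added after its values were seen. MTRNR2L1, MTRNR2L6 and MTRNR2L3 fell by 1.27, 1.22 and 0.79 on the log2 scale. The sum over all 9 was 1223 normalized counts in shNPTX1_3, 1864 in shNPTX1_4 and 3250 in shCTRL. Most of it came from MTRNR2L8 (524, 844 and 1469) and MTRNR2L2 (377, 599 and 1111), which were not called. Their DESeq2 adjusted p-values were 0.100 and 0.0881 per the authors' deposited table.

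**Figure D5:**
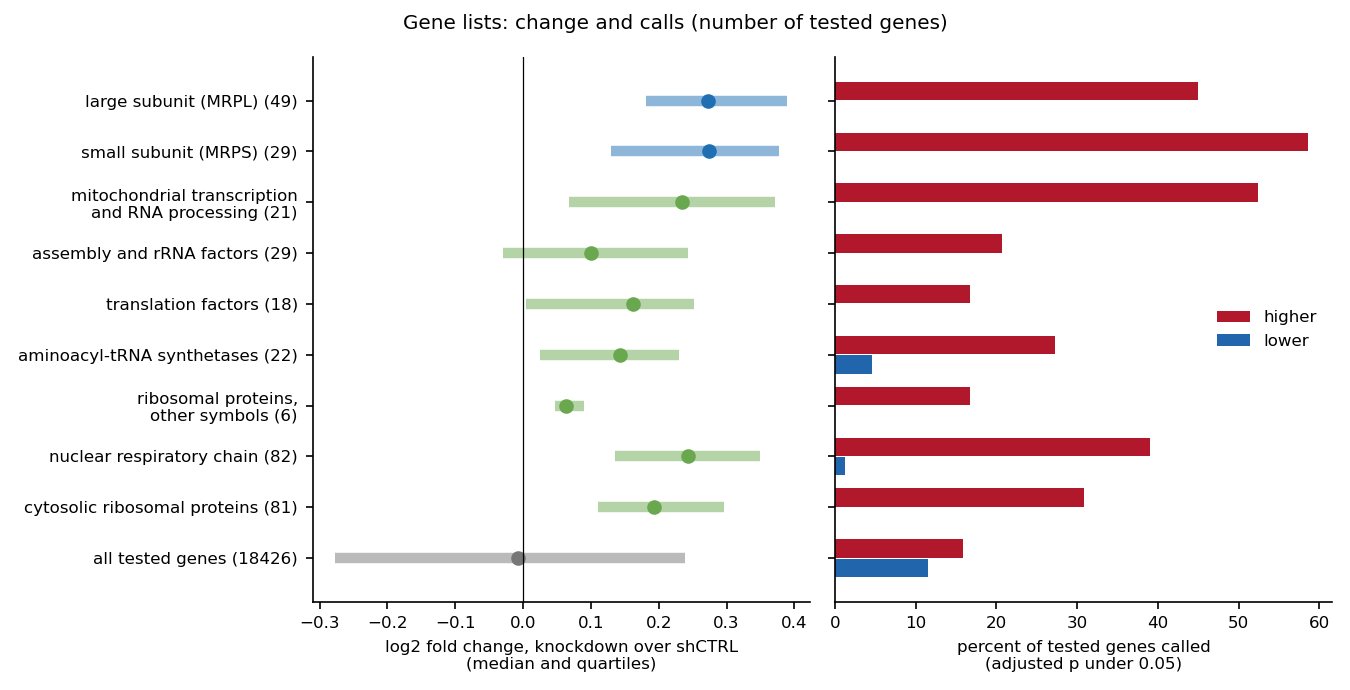
Left, the median (point) and quartiles (bar) of the deposited log2 fold change, knockdown over shCTRL, for each gene list, with the number of tested genes in brackets. Right, the percent of those genes called higher (red) and lower (blue), 44.9% higher in MRPL, 58.6% in MRPS and 15.8% over all tested genes.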

How the data were processed

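Per the labels' protocols, total RNA went into TruSeq libraries. DESeq2 1.24, featureCounts 2.0.0 and STAR 2.7.6a are named in the submitters' processing notes, beside the builds hg19 and mm39. Annotation, strand setting and the handling of mouse reads are not stated in those sources. Per the file headers, the deposited table holds a mean signal per group (counts divided by size factors and averaged by the authors), the authors' log2 fold change and its standard error, their Wald statistic (a score) and the authors' p-value and adjusted p. In 23430 of 23434 rows the overall mean equalled the group means weighted by libraries, within a relative difference of 1e-06.

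Rows without a name (79), named by a date (26) or repeated (2) were left out, 0.387% of the mean counts. A test of counts planned for the case of single-library values could not be run on group means, so calls are DESeq2's, at an adjusted p under 0.05. Alternatives kept the standard errors and redid Benjamini-Hochberg adjustment (scipy 1.17.1, spline trend with patsy 1.0.2 and 5 degrees of freedom), and these steps were tested on simulated data. After removal of the trend, the median of all genes at 2 CPM or more was added back before testing. Hairpin ratios used a pseudocount of 1. Lengths and GC content came from GENCODE 29, as medians over a gene's basic coding transcripts. Genes were named by rule: the 6 largest increases and the 4 largest decreases of each subunit among called genes, the 2 nearest above the threshold, the 3 highest and lowest per kilobase, the 4 with the widest hairpin difference, and members with known roles; of each other list, the 3 largest changes, with a few further genes chosen after their values were seen. The members and lists were chosen with earlier results of these data known.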

Additional observations from a re-analysis of the deposited data

How the results depend on the processing

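Higher calls among the 78 members ranged from 22 to 42 over 6 alternative settings of the test, against 39. Over all genes tested in each setting, the share called higher ranged from 10.3% (adjusted p under 0.01) to 20.3% (genes at 2 CPM or more only), and was 15.3% with the trend removed. With an adjusted p under 0.01 there were 25 (14 MRPL and 11 MRPS), and with the trend over level, length and GC removed 22 (13 and 9), with medians of 0.13 for both subunits. Lower calls were 1, MRPS34, with total-count scaling, with centring on the median of all genes and with genes at 2 CPM or more only, and 2 with the trend removed (1 MRPL, MRPL19, and 1 MRPS, MRPS34). No called member reversed, and the differences between the subunits' medians and the hairpin medians moved by less than the members' median standard error. With total-count scaling 11 members lost their calls, and with the trend removed 18 did, while 10 uncalled members changed sign. The cause was not tested.

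For the other lists, with total-count scaling, higher calls were 0 for the other symbols, 3 for assembly factors, 1 for the synthetases and 4 for transcription and RNA processing, and lower calls were 2 for assembly factors, 1 for translation factors and 1 for transcription. With an adjusted p under 0.01, higher calls were 0, 1 and 4 for the other symbols, the synthetases and transcription. With the trend removed, higher calls were 0, 2 and 4 for these lists, and lower calls were 1 each for assembly, translation factors and transcription and 2 for the synthetases. Centring left 3 synthetases higher and 1 assembly and 1 translation factor lower, and testing genes at 2 CPM or more only gave 5 translation factors higher. The cytosolic ribosome and respiratory chain lists were put through the same settings after the data were seen. Higher cytosolic calls were 13 with total-count scaling, 12 at 0.01 and 6 with the trend removed, and lower ones 1 and 3 with scaling and trend. Higher respiratory chain calls were 11 with the trend removed, where 64 of the 82 genes had the transcript length needed. Lower ones were 2 with total-count scaling and 0 at 0.01 and with no independent filtering.

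No paired analysis was possible because the table holds group means, and for the same reason leaving out each replicate, edgeR and a rerun of DESeq2 were not run. Low counts limit little here, since the lowest member, MRPL54, averaged 80.5 normalized counts. The shCTRL libraries were uneven in depth, however, and the spread within a group is known only through the deposited standard errors.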
